A study of Mus musculus with 3 samples.

Results

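Grem1, Nog, Chrd, Chrdl1, Fst, Fstl1, Bmper, Nbl1 and Twsg1 encode secreted proteins that bind BMPs or activins outside the cell, and their transcripts were compared here across 3 segments of the embryonic mouse gut. The 9 genes were taken by name from the deposited table of 33762 features, each matched a single row, and all 9 had at least 20 counts in every library. Polyadenylated RNA came from the caecum, the colon and the presumptive ileum, the last of 3 equal portions of the small intestine, of wild type embryos of the strain given as Bl6/C57 at E13.5. Each segment was represented by 1 sample, and the labels do not say whether a sample held tissue of more than 1 embryo. The libraries held 64439701, 50772855 and 50079617 counts in the caecum, colon and ileum. The table gives 2 count columns for each sample, apart by less than the counting error, and their mean was taken as 1 library. No difference below therefore has a replicate check or a p-value, and every interval is a 95% interval for counting error only.

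BMPs and activins are dimeric ligands of the TGF-beta family that signal through paired serine/threonine kinase receptors and Smad proteins. Secreted antagonists hold these ligands away from their receptors, and several of them are themselves released by proteases or carry ligand to other sites. In the gut wall, BMPs made largely by mesenchyme act on the epithelium, the muscle layers and enteric neural crest cells, and antagonists in the mesenchyme limit where they act.

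Grem1 and Fst set the caecum library apart, in opposite directions, while Nog and Bmper were lowest in the colon library. Grem1 was 14.8-fold and 10.4-fold lower in the caecum than in the colon and ileum, and Fst was highest there. Fstl1, Twsg1 and Nbl1 varied by less than 1.5-fold over the 3 libraries. Chrd and Chrdl1 lay in between. A fold is the ratio of counts scaled by TMM, a factor that corrects library totals for composition, and genes 2-fold or more apart are counted below.

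**Figure D1:**
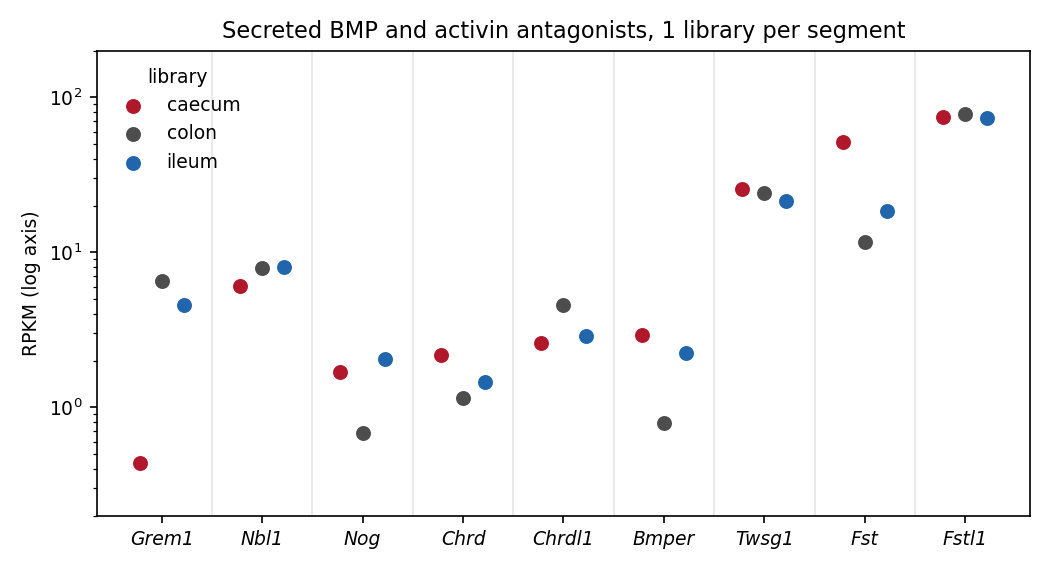
RPKM of the 9 antagonists on a log axis, with a point for the caecum (red), colon (grey) and ileum (blue) library of each gene. Grem1 stands at 0.44 RPKM in the caecum against 6.58 and 4.56 in the colon and ileum, whereas the 3 points of Fstl1 lie between 73.2 and 78.6.

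Grem1, a cystine-knot antagonist of the DAN family that binds BMP2, BMP4 and BMP7, had the widest range of the 9 genes, at 14.8-fold between its highest and lowest library. It lies on the minus strand of chromosome 2 of mm9 at 113586320 to 113598803 (ENSMUSG00000074934), and no other feature of the table overlaps it. The 2 count columns of each library read 118 and 117 in the caecum, 1384 and 1386 in the colon, and 945 and 950 in the ileum. The caecum library stood far below the other two, which lay close to each other. Grem1 was 14.8-fold (12.3 to 18.1) lower in caecum than in colon and 10.4-fold (8.62 to 12.8) below the ileum. Only 0.184% and 0.112% of all genes compared had a fold as low or lower in these comparisons. Between colon and ileum the fold was 1.42 (1.31 to 1.54), higher in the colon. Among the 9 genes Grem1 was the least abundant in the caecum library per length, and in the colon library 4 of the others were more abundant.

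The letters just upstream of the Grem1 start are shown because it is the member that differed most, beside those of Bmper and Chrd, which had the next widest ranges among the 6 members found in the RefSeq promoter table (GRCm38.p6). Each run holds the 250 bases before the start, read 5′ to 3′ on the strand of the gene, at chr2:113758649-113758898 (minus strand), chr9:23222826-23223075 (plus) and chr16:20732877-20733126 (plus). Capitals mark matches on either strand to 5 motifs. They are GGGCGG, the GC box, then GGCGCC, a GC-rich site bound by BMP Smads, then CCAAT, the CCAAT box, then TATAAA, the TATA box, and last TTTATNG, a site of posterior Hox and Cdx proteins. Matches that overlap run together.
Grem1: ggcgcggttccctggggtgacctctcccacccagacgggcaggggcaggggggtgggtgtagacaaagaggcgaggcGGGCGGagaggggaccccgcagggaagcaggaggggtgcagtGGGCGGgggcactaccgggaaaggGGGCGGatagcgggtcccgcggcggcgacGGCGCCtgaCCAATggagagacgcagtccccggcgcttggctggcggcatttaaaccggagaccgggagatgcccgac
Bmper: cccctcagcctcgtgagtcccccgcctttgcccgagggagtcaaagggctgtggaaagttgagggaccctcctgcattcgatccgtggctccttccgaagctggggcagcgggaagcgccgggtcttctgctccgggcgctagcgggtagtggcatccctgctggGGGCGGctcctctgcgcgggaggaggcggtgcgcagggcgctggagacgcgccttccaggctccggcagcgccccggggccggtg
Chrd: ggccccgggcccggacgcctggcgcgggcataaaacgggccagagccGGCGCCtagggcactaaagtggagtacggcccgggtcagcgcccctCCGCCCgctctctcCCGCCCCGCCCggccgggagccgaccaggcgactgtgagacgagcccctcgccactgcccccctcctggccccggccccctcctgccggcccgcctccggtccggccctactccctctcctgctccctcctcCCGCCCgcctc
The Grem1 window held 3 GC boxes, 1 GGCGCC and 1 CCAAT, the Bmper window 1 GC box, and the Chrd window 4 GC boxes and 1 GGCGCC. Of 32851 mouse promoter windows of the same length, 32.7% hold a GC box, 9.59% a GGCGCC and 33.8% a CCAAT. The TATA box and the posterior Hox site, found in 12.4% and 9.81% of windows, occur in none of the 6 members' windows. GC content was 72.0%, 71.6% and 78.0% in Grem1, Bmper and Chrd, where the median of all windows was 52.4%. A match of letters is a description of the window and says nothing of binding.

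Pericyte markers were low in the caecum library together with Grem1. The summed level of Rgs5, Cspg4, Kcnj8 and Abcc9 was 15.2, 48.4 and 54.7 RPKM in the caecum, colon and ileum, and 3 of the 4 were at least 2-fold lower in the caecum than in either neighbour. The exception was Cspg4, at 2.80, 2.52 and 3.20 RPKM. None of the 4 was at 0 in any library. Smooth muscle markers summed to 444, 606 and 1124 RPKM, with 5 of 8 at least 2-fold lower in caecum than in ileum and 0 of 8 than in the colon. Des went the other way and was highest in the caecum, at 12.8, 8.23 and 9.19 RPKM in the caecum, colon and ileum. The 9 general mesenchyme markers, among them Pdgfra and Vim, summed to 799, 873 and 810 RPKM. Of these, 1 of 9, Twist1, was at least 2-fold higher in caecum than in ileum, and 0 of 9 were 2-fold apart between caecum and colon. Twist1 stood at 7.05, 9.80 and 2.25 RPKM in the caecum, colon and ileum. The part of these cell types in the Grem1 difference was not tested, and in bulk tissue fewer cells of a type and less RNA per cell cannot be told apart.

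**Figure D2:**
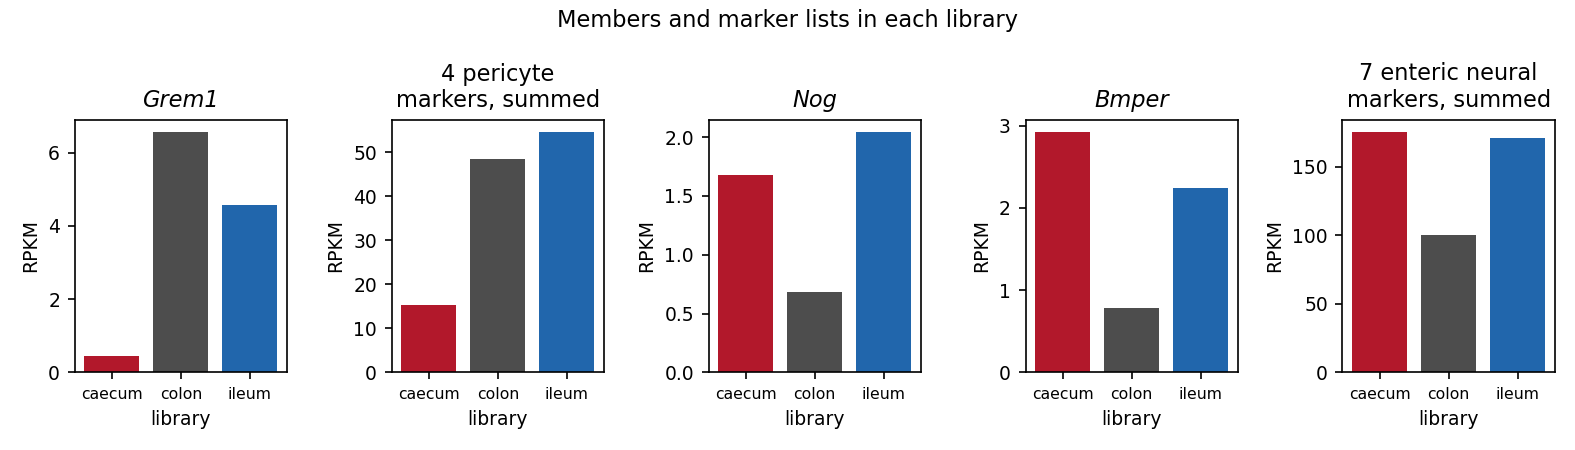
RPKM of Grem1, of 4 pericyte markers summed, of Nog and Bmper, and of 7 enteric neural markers summed, with a bar for the caecum, colon and ileum library. Grem1 and the pericyte sum (15.2 RPKM) are lowest in the caecum, while Nog, Bmper and the enteric neural sum are lowest in the colon.

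Nbl1, also known as DAN, belongs to the same family as Grem1 but did not share its pattern. It had 790, 817 and 814 counts in the caecum, colon and ileum, and 6.03, 7.91 and 7.99 RPKM. It lies on the minus strand of chromosome 4 of mm9 at 138638198 to 138648908 (ENSMUSG00000041120). Nbl1 was 1.31-fold (1.18 to 1.44) lower in caecum than in colon and 1.34-fold (1.21 to 1.48) below the ileum.

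Fst, or follistatin, wraps activin and blocks both of its receptor sites, and it also binds some BMPs. Its count columns read 8932.5 and 8807.5 in the caecum, 1612 and 1591 in the colon, and 2449.5 and 2524.5 in the ileum. The caecum library was the highest and the colon the lowest. Fst was 4.38-fold (4.15 to 4.62) higher in caecum than in colon and 2.74-fold (2.62 to 2.87) above the ileum, and 1.60-fold (1.5 to 1.70) lower in colon than in ileum. Per length it reached 51.2 RPKM in the caecum, against 11.7 and 18.5 in the colon and ileum, which placed it at rank 1360 of all features in the caecum and at ranks 5874 and 3964 in the colon and ileum. The gene lies on the minus strand of chromosome 13 of mm9 at 115242469 to 115249159 (ENSMUSG00000021765) and overlaps no other feature.

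Fst exceeded Grem1 in every library, but by very different amounts. The RPKM of Fst was 117 times that of Grem1 in the caecum, 1.79 times in the colon and 4.05 times in the ileum. In counts, the ratio of Fst to Grem1 was 65.0-fold (53.4 to 79.7) higher in caecum than in colon and 28.6-fold (23.5 to 35.2) above the ileum.

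Inhba, which encodes a subunit of the activins that Fst binds, was the only gene of 6 activin, nodal and myostatin ligands with at least 20 counts in a library. It had 66, 221 and 12 counts in the caecum, colon and ileum. Inhba was 4.23-fold (3.20 to 5.66) lower in caecum than in colon, 4.23-fold (2.27 to 8.60) higher in caecum than in ileum, and 17.9-fold (10.04 to 35.2) higher in colon than in ileum. The library with the most Inhba was thus the colon, where Fst was lowest. Fst had 99.8, 5.34 and 147 times the RPKM of Inhba in the caecum, colon and ileum. The ileum value rests on 12 Inhba counts, and Inhba passed the 20-count minimum against the ileum through the other library alone. In counts, the ratio of Fst to Inhba in caecum against ileum was 0.648 (0.319 to 1.21), an interval that includes no difference. Fstl3, a relative of Fst that also binds activins, had 124, 214 and 152 counts and was 2.18-fold (1.74 to 2.74) lower in caecum than in colon.

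Fstl1, a secreted glycoprotein with a follistatin-like domain that binds BMP4, was the most abundant of the 9 genes and the most even. Its levels of 74.7, 78.6 and 73.2 RPKM in the caecum, colon and ileum put it at ranks 940, 911 and 972 of all features. With 23648, 19606 and 18006 counts the intervals were narrow. Fstl1 differed by 1.01-fold (0.99 to 1.03) between caecum and ileum, an interval that includes no difference, by 1.05-fold (1.03 to 1.07) between caecum and colon, lower in the caecum, and by 1.06-fold (1.04 to 1.08) between colon and ileum. Fstl1 lies on the plus strand of chromosome 16 of mm9 at 37776958 to 37836600 (ENSMUSG00000022816). It overlaps Gm15724, a feature of the opposite strand with 4, 12 and 4 counts. Whether the counting told reads of the 2 features apart is not known here.

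Nog, or noggin, a dimeric antagonist that covers both receptor sites of BMP4 and BMP7, was lowest in the colon library. Its count columns read 203 and 213 in the caecum, 67 and 66 in the colon, and 196 and 198 in the ileum. Caecum and ileum were near each other, with a fold of 1.23 (1.01 to 1.504), lower in the caecum. Nog was 2.49-fold (1.88 to 3.34) higher in caecum than in colon, an interval that reaches below 2-fold, and 3.07-fold (2.31 to 4.12) lower in colon than in ileum. The gene lies on the minus strand of chromosome 11 of mm9 at 89161951 to 89163873 (ENSMUSG00000048616). It was sparse per length, at 1.68, 0.681 and 2.05 RPKM.

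Bmper, a vertebrate relative of Drosophila crossveinless 2 that binds BMPs and chordin and can either restrain or aid signalling, was also lowest in the colon. Its count columns read 725 and 706 in the caecum, 152 and 151 in the colon, and 415.5 and 437.5 in the ileum. Bmper was 3.73-fold (3.12 to 4.47) higher in caecum than in colon and 2.88-fold (2.39 to 3.49) lower in colon than in ileum. Between caecum and ileum it stayed within 2-fold, at 1.29 (1.14 to 1.46), higher in the caecum. Its levels were 2.93, 0.787 and 2.24 RPKM. Bmper spans 262128 bases on the plus strand of chromosome 9 of mm9, from 23027519 to 23289646 (ENSMUSG00000031963).

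The summed level of enteric neural markers was lowest in the colon library, as were Nog, Bmper, Fst and Chrd. The 7 markers, among them Tubb3 and Ednrb, summed to 176, 100.5 and 171 RPKM in the caecum, colon and ileum. Of these, 4 of 7 were at least 2-fold lower in colon than in ileum, 2 of 7 were at least 2-fold higher in caecum than in colon, and none was at 0. Ret went the other way between colon and ileum, at 28.7, 23.5 and 20.9 RPKM in the caecum, colon and ileum. The part of enteric neural cells in the Nog, Bmper, Fst and Chrd differences was not tested.

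Chrd, or chordin, binds BMPs through cysteine-rich repeats until a tolloid protease cuts it. It had 819, 340 and 429 counts in the caecum, colon and ileum. Chrd was highest in the caecum library, but by less than 2-fold, at 1.91-fold (1.68 to 2.17) over the colon and 1.47-fold (1.30 to 1.65) over the ileum, and it was 1.30-fold (1.12 to 1.501) lower in colon than in ileum. Chrd lies on the plus strand of chromosome 16 of mm9 at 20733199 to 20742457 (ENSMUSG00000006958). Its start overlaps Thpo on the opposite strand, a gene with 30, 31 and 22 counts, and whether the counting told reads of the 2 genes apart is not known here. Bmp1, a chordin-cutting protease, stayed within 2-fold at 36.8, 29.1 and 25.3 RPKM, and Tll1, its relative, was 2.17-fold (1.89 to 2.50) higher in caecum than in colon.

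Chrdl1, a chordin-like antagonist, ran in the other direction from Chrd and Bmper. It had 1138, 1570 and 973 counts and 2.61, 4.58 and 2.88 RPKM in the caecum, colon and ileum. Chrdl1 was highest in the colon, 1.57-fold (1.45 to 1.70) above the ileum, and 1.74-fold (1.61 to 1.88) lower in caecum than in colon. Caecum and ileum differed by 1.11-fold (1.02 to 1.21), lower in the caecum. Chrdl1 lies on the minus strand of chromosome X of mm9 at 139720216 to 139828805 (ENSMUSG00000031283).

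Twsg1, or twisted gastrulation, joins chordin and BMP in a complex and affects how readily chordin is cut. It was even across the gut, with 25.5, 24.1 and 21.3 RPKM in the caecum, colon and ileum. Twsg1 lies on the minus strand of chromosome 17 of mm9 at 66272405 to 66300527 (ENSMUSG00000024098). Its fold was 1.06 (1.03 to 1.10) for caecum over colon, 1.19 (1.14 to 1.23) for caecum over ileum, and 1.11 (1.07 to 1.16) for colon over ileum. The range over the libraries was 1.19-fold for Twsg1 and 1.06-fold for Fstl1, where it was 14.8-fold for Grem1, 4.38-fold for Fst, 3.73-fold for Bmper and 3.07-fold for Nog.

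**Figure D3:**
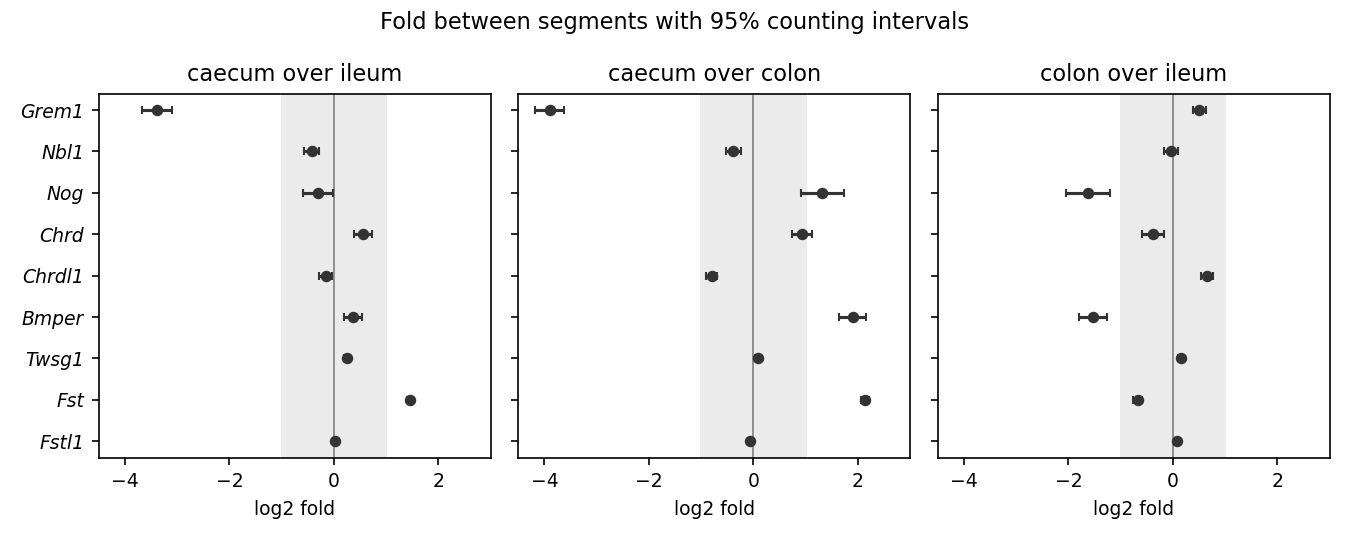
Log2 fold of each antagonist with its 95% counting interval, for each pair of segments, with the range within 2-fold shaded. Grem1 lies at -3.39 in caecum over ileum and -3.89 in caecum over colon, Fst at 1.46 and 2.13 in the same comparisons, and Nog and Bmper at -1.62 and -1.53 in colon over ileum.

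In counts of members, 2 of the 9 were 2-fold or more apart between caecum and ileum, Fst higher and Grem1 lower, where 7.11% of all genes were, 4.59% higher and 2.52% lower. Between caecum and colon 4 of the 9 were, Fst, Bmper and Nog higher and Grem1 lower, where 7.84% of all genes were, 5.11% higher and 2.74% lower. Between colon and ileum 2 of the 9 were, Nog and Bmper lower in the colon and 0 higher, where 8.33% of all genes were, 4.04% higher and 4.29% lower. The median log2 fold of the 9 was 0.01, 0.09 and -0.04 in these comparisons, and that of all genes stayed within 0.01 of 0. The comparisons share libraries and are not independent of one another.

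The make-up of the antagonist pool by length-scaled level differed between the segments. Fstl1 held 44.6%, 57.7% and 54.5% of the summed RPKM of the 9 genes in the caecum, colon and ileum. Fst held 30.6% in the caecum and 8.63% and 13.8% in the colon and ileum, and Grem1 held 0.263% in the caecum and 4.83% and 3.40% in the others. The sum of all 9 was 167, 136 and 134 RPKM. Without Fstl1, Fst and Twsg1, the remaining 6 summed to 15.9, 21.7 and 21.2 RPKM, lowest in the caecum. That order rested on Grem1, since without it the other 5 summed to 15.4, 15.1 and 16.6 RPKM. In the caecum library Fst alone gave 51.2 RPKM of the sum.

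BMP and GDF genes varied along the gut too. Whether the antagonists above bind the product of each was not tested here. Of 20 BMP and GDF genes, 14 had enough counts to be compared between caecum and ileum, with 4 higher and 2 lower in the caecum, where 7.11% of all genes were 2-fold apart. The 4 higher were Gdf5, Gdf9, Gdf10 and Gdf15. All but Gdf10 passed the 20-count minimum of that comparison through the caecum library alone. In the caecum, colon and ileum, Gdf5 had 466, 6 and 4 counts, Gdf9 44, 20 and 12, and Gdf15 26, 13 and 0. Against the colon 3 of 14 were higher and 1 lower in the caecum, where 7.84% of all genes were apart. Gdf5, 1 of these 3, again passed the minimum through the caecum library alone. Between colon and ileum 1 of 12 was higher and 1 lower in the colon, near the 8.33% of all genes. The median log2 fold of these ligands was 0.38, 0.30 and 0.23 for the 3 comparisons in that order. Bmp4, a ligand of Grem1, Nog and Chrd made by gut mesenchyme, had 40.7, 26.6 and 21.6 RPKM in the caecum, colon and ileum. It was 1.86-fold (1.78 to 1.96) higher in caecum than in ileum and 1.54-fold (1.47 to 1.61) above the colon. The caecum library thus had the highest Bmp4 and the lowest Grem1, and Grem1 amounted to 0.0108, 0.247 and 0.211 times the RPKM of Bmp4.

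Bmp2 and Bmp7, further ligands of the same antagonists, stayed within 2-fold, at 1.61, 1.67 and 0.969 RPKM for Bmp2 and 7.34, 8.10 and 6.68 RPKM for Bmp7. Gdf5, a ligand known for its role in joints, had 466, 6 and 4 counts, and Gdf10, also called BMP3b, had 6280, 1502 and 213. Both were highest in the caecum library. Bmp3, which opposes other BMPs, had 356, 50 and 580 counts. It was 5.63-fold (4.18 to 7.73) higher in caecum than in colon and 2.12-fold (1.85 to 2.42) below the ileum. Gdf6 had 117, 247 and 274 counts and was lowest in the caecum, by 2.67-fold (2.13 to 3.35) against the colon and 3.05-fold (2.44 to 3.82) against the ileum. The list of 20 BMP and GDF genes leaves out the activins that Fst binds. Its genes summed to 102, 64.3 and 53.5 RPKM, and the 9 antagonists to 1.64, 2.12 and 2.51 times that sum. Fstl1 carries much of this ratio, and without it the values were 0.909, 0.894 and 1.14.

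Receptors, Smads and genes that respond to BMP gave counts of 0 or 1 per comparison, near the 7.11%, 7.84% and 8.33% of all genes that were 2-fold apart. Of 13 receptors and co-receptors with enough counts, 0 were 2-fold apart in either caecum comparison, and 1, the type I receptor Bmpr1b, was 2.39-fold (2.07 to 2.77) higher in colon than in ileum. None of 8 Smads was 2-fold apart in any comparison. Of 10 BMP-responsive genes, 1, the bHLH factor Atoh8, was 2.03-fold (1.69 to 2.46) higher in caecum than in colon. Id1 and Id3, inhibitors of bHLH factors that BMP induces in many cells, stayed within 2-fold, at 37.5, 20.9 and 27.0 RPKM and 56.4, 31.9 and 47.3 RPKM. Their lowest values were in the colon library. For caecum over ileum, then caecum over colon, then colon over ileum, the median log2 fold was 0.16, 0.04 and 0.02 for receptors, 0.16, 0.07 and 0.09 for Smads, and 0.25, 0.43 and -0.36 for the BMP-responsive genes.

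Of 15 further extracellular antagonists and modulators, 13 had enough counts to be compared between caecum and ileum, with 2 higher and 2 lower in the caecum, where 7.11% of all genes were apart. The 2 higher were Sost (24, 11 and 6 counts in the caecum, colon and ileum) and Vwc2 (54, 16 and 18), which passed the minimum through the caecum library alone. Of the 2 lower, Chrdl2 (19, 41 and 40) passed it through the ileum library alone. Against the colon 1, Vwc2, was higher and 2 were lower in the caecum, where 7.84% of all genes were apart. There Vwc2 passed through the caecum library alone, and Chrdl2, 1 of the 2 lower, through the colon library alone. Between colon and ileum 1 of 11 was higher in the colon, near the 8.33% of all genes. The median log2 fold of this list was -0.06, -0.15 and 0.40 in these comparisons. Sostdc1, an antagonist of BMP and WNT signals, had 60, 76 and 122 counts and was 2.64-fold (1.93 to 3.67) lower in caecum than in ileum. Smoc1 and Smoc2, matricellular proteins, were the most abundant of the list, at 20.8, 23.2 and 13.7 RPKM and 36.7, 68.2 and 46.0 RPKM, and stayed within 2-fold.

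**Figure D4:**
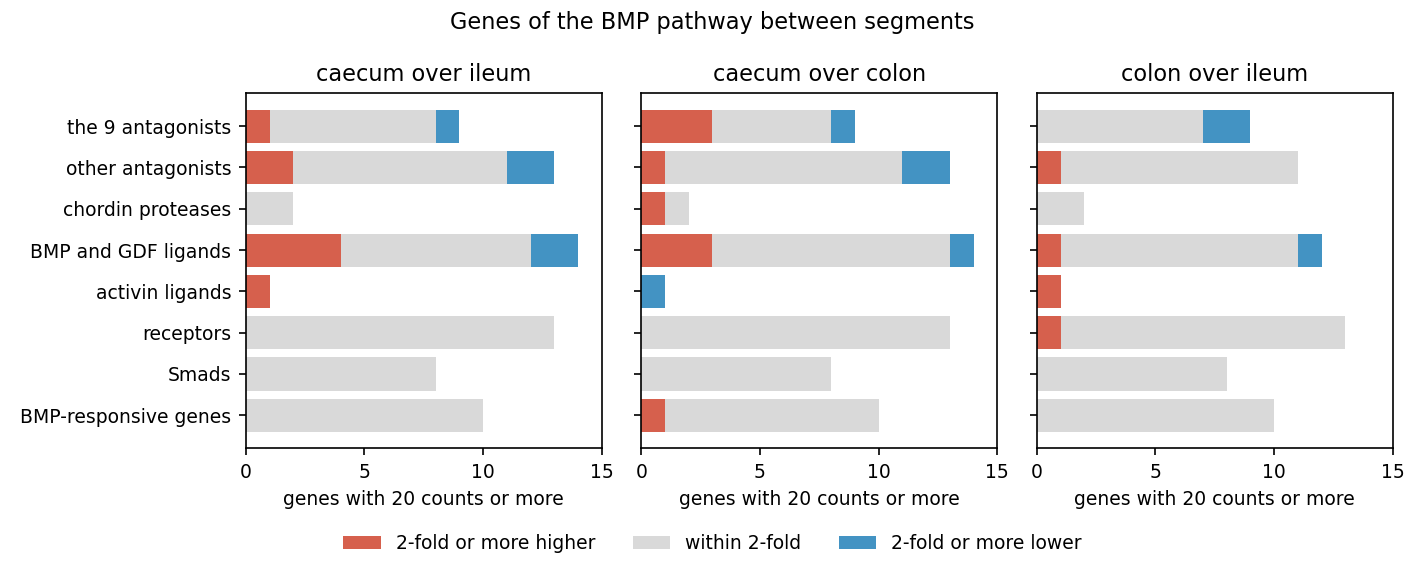
Number of genes per pathway list that were 2-fold or more higher (red), within 2-fold (grey) or 2-fold or more lower (blue) in each comparison, among genes with 20 counts or more in the higher library. Of all genes 7.11%, 7.84% and 8.33% would be coloured in the 3 panels, and the counts of 0 or 1 for receptors, Smads and BMP-responsive genes lie near that share.

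The genes whose profile over the 3 libraries lay nearest to each variable member were found by Euclidean distance of centred log2 values among 12181 genes. These were left of 15082 features with at least 100 counts in the highest library once the members were taken out, together with features whose names mark them as histone, ribosomal or mitochondrial genes, gene predictions, or cDNA clones. With 3 libraries such nearness is a weak description. Nearest to Grem1 were Sfrp1, Gpbar1 and Trim31, at distances of 0.48, 0.72 and 0.79. Sfrp1, a secreted WNT antagonist, had 2.92, 69.7 and 38.2 RPKM in the caecum, colon and ileum. Nearest to Fst were Lix1, Hoxd4 and Slit1, at 0.03, 0.08 and 0.11. Lix1 had 8.28, 1.96 and 3.01 RPKM. Nearest to Nog were Ltk, Cacng4 and Cdh12, and to Bmper Hkdc1, Pgbd5 and Mtap6. Their distances ran from 0.02 to 0.07. The nearest gene to Grem1 was thus farther away than the nearest to Nog, Fst or Bmper. Few genes had folds as low as those of Grem1, so few could lie near it, and the larger distance partly restates its range.

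Genes known to mark gut segments were read in each library as a check of its label. Hoxd13 and Hoxa13 were at 18.7 and 18.4 RPKM in the colon and under 1 RPKM in the other libraries, Hoxd10 was highest in the caecum at 24.1 RPKM, and Gata4 in the ileum at 3.59 RPKM. Nkx2-3, a factor of gut mesenchyme, was present in all, at 29.2, 22.4 and 29.6 RPKM. Of 8 markers of other organs, 1, 3 and 3 were at 0, and their sum was 29.8, 27.2 and 8.89 RPKM. The pancreas factors Pdx1 and Ptf1a had at most 1 count. Afp, a fetal liver and yolk sac protein, made up most of the sum, at 23.4, 22.7 and 4.14 RPKM, and Sox2, a foregut factor, had 6.14, 4.15 and 4.64 RPKM. Tissue of other organs and expression in the segment itself cannot be told apart here. The part of either in the members' differences was not tested. Epithelial markers summed to 175, 216 and 176 RPKM, endothelial markers to 43.5, 50.8 and 43.7, mesothelial markers to 45.6, 53.3 and 35.3, and blood cell markers, mostly haemoglobin, to 1338, 1365 and 1329. Of 5 mesothelial markers 1, Msln, was 16.1-fold (9.69 to 28.7) lower in caecum than in colon, and 4 stayed within 2-fold. Msln had 16, 204 and 24 counts in the caecum, colon and ileum.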

How the data were processed

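Per the file headers, the authors deposited expected counts, which end in 0.5 in places, and RPKM values, which the authors scaled for length and depth. Bowtie 0.12.7, DESeq and the mm9 build appear in the submitters' processing notes, and the counting program, annotation and use of strand are not given in the sources used here. Each library has 2 columns, labelled as replicates in the headers but belonging to 1 sample. They differed by 0.451, 0.442 and 0.426 times the counting variance in the caecum, colon and ileum, and were averaged as 1 library and rounded.

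Counts were scaled by TMM (edgeR 4.0.16, R 4.3.3), and folds carry 95% intervals from the conditional binomial (exact, Clopper-Pearson, SciPy 1.17.1). A gene was compared where its higher library had at least 20 counts, and was called at 2-fold. With 1 library per segment no test was possible. The fold computation was tested on simulated counts. RPKM was used for levels between genes.

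The members and lists were chosen with earlier results of these data known. Named were the 9 members, Bmp2, Bmp4 and Bmp7, up to 4 genes per pathway list with at least 100 counts and 2-fold apart, ranked by range, and the 3 nearest genes to each member with a 2-fold range. Other genes (Bmp1, Id1, Id3, Smoc1, Smoc2, Gdf9, Gdf15, Sost, Vwc2, Chrdl2, Thpo, Gm15724 and the markers named) were added after their values were seen. Sequences are from RefSeq. Values of some genes in the lists are not reported here.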

Additional observations from a re-analysis of the deposited data

How the results depend on the processing

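All 135 refitted folds of the members, under median-of-ratios size factors (DESeq2 1.42.0), total counts, the authors' RPKM or either count column alone, lay within the interval of the value reported, and none changed its call. Such closeness was largely fixed in advance, since the other scalings shift all folds of a comparison by nearly the same small factor. Each count column is itself part of the averaged value. The largest shift from a reported fold was 1.04-fold. With intervals required to lie wholly beyond 2-fold, 2, 3 and 2 members were apart between caecum and ileum, between caecum and colon, and between colon and ileum, since Nog dropped out against the colon. At 1.5-fold they were 2, 6 and 4. The numbers of all genes apart in these comparisons were 2444, 2762 and 2736 with no count minimum, 707, 804 and 810 with at least 100 counts, 630, 741 and 769 with intervals wholly beyond 2-fold, and 2737, 2768 and 2796 at 1.5-fold, set by the construction of each rule. Without a minimum, 1404 were higher and 1358 lower in the caecum than in the colon, where the 20-count minimum gave 914 and 490. No paired analysis was possible because each segment has 1 sample. Depth limits Nog most, with 66 counts in the colon, and Inhba, with 12 in the ileum. Variation between embryos, dissections and library preparations could not be estimated.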
